A study of Homo sapiens with 6 samples.

Results

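The genes described here are 10 components and core targets of the YAP/TAZ-TEAD pathway: CYR61, CTGF, ANKRD1, AMOTL1, AMOTL2, AJUBA, LATS2, YAP1, WWTR1 and TEAD1. They were taken by gene symbol from the table of 58735 genes, and all 10 were found and passed the filter on low counts. CYR61 and CTGF are the older symbols of CCN1 and CCN2. The libraries came from Huh7, an established human hepatocellular carcinoma cell line, grown in RPMI-1640 with fetal bovine serum and carrying either a short hairpin RNA against the integrin subunit gene ITGB5 (3 libraries) or a control hairpin (3 libraries). The sources used here give neither the hairpin sequences nor how many hairpins or clones stand behind a group. Nothing in the labels marks the 3 libraries as separate cultures, so p-values cover only the spread between libraries, which may be technical.

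YAP1 and its paralog WWTR1 (the gene of the protein TAZ) are transcriptional coactivators that bind DNA through the TEAD factors. The Hippo kinases, ending in LATS1 and LATS2, phosphorylate both coactivators and keep them out of the nucleus, while angiomotin family proteins hold them in the cytoplasm and at junctions, and LIM proteins such as AJUBA restrain LATS. Cell adhesion, matrix stiffness and actin tension are known inputs, and in liver the pathway is known for its control of organ size and for its activity in liver tumours. Several targets, among them LATS2 and AMOTL2, feed back on the coactivators.

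Between 15777922 and 18011313 counts were assigned to genes in each library. ITGB5 itself was 16.8% lower with its hairpin (176 CPM ± 4.30 against 212 CPM ± 6.35, SD, n = 3 each; edgeR adjusted p = 2.13e-09), with no overlap between the groups. CPM here are counts scaled to library size with TMM factors. Liver markers such as AFP (846 CPM ± 10.5 in the controls) and APOB (990.4 CPM ± 15.7) were abundant, whereas the endothelial markers KDR and CLEC4G and the B cell marker MS4A1 were at 0 in every library. Other markers of these cells were detected. In the controls, 7 endothelial markers summed to 3.84 to 5.89 CPM, with PECAM1 the only one tested. The 8 blood and immune markers summed to 37.7 to 37.8 CPM, with CD14 and LYZ tested. A count of 0 still allows 0.167 to 0.190 CPM, for counting error only. Over all 16577 genes tested, 8.31% rose and 6.74% fell. Of 12 liver and hepatoma markers, 6 rose and 0 fell (edgeR, with 0 also lower at an unadjusted p under 0.05 and 0 with DESeq2 or limma), including TTR (log2 change 0.68) and APOA1 (0.36), 2 plasma protein genes, and AFP (0.30) and APOB (0.23). Mitochondrially encoded transcripts, a sign of RNA quality, took 3.24% to 3.29% of the counts with the ITGB5 hairpin and 3.47% to 3.54% in the controls, and 9 of 13 fell, from -0.16 for MT-CYB to -0.21 for MT-ND5 among the 4 largest falls. The part of this difference in the results below was not tested.

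CTGF and ANKRD1 carry the TEAD recognition motif in more than 1 copy close to their starts, and these stretches are shown because both genes lie among those that changed most. RefSeq windows of 300 bases (GRCh38.p14), from 250 before to 50 after an annotated start, were matched for 8 of the 10 genes, in 11 windows. CYR61 and TEAD1 had no window, so their starts were not searched. Each stretch below reads 5′ to 3′ on the strand of the gene, with the TEAD motif GGAATG, or its complement CATTCC, in capitals (in 1 stretch, a motif of AP-1), and positions count from the RefSeq start.
CTGF, chr6:131951526-131951551, minus strand, position -169: ttcagacggaGGAATGctgagtgtca
CTGF, chr6:131951455-131951483, minus strand, positions -104 and -95: gtggggaGGAATGcgaGGAATGtccctgt
ANKRD1, chr10:90921292-90921317, minus strand, position -220: caccaccaaaGGAATGgccctctcac
ANKRD1, chr10:90921200-90921225, minus strand, position -128: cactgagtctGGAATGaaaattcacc
ANKRD1, AP-1 motif, chr10:90921266-90921292, minus strand, position -195: catttcttccTGATTCAcatattcagc
YAP1, chr11:102110275-102110300, plus strand, position -162: ggagtgtgcaGGAATGtagcaacttg
AMOTL2, chr3:134374501-134374526, minus strand, position -69 of the second annotated start: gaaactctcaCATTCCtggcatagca

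Counting both strands, the window of CTGF held 3 copies of the TEAD motif and that of ANKRD1 held 2. Over all 35116 windows of this length, 14.0% held at least 1 copy, 1.37% at least 2 and 0.128% at least 3. LATS2 held 1 copy at position 10, and the second of the 2 AJUBA starts held 1 at position -59. The gene model of ANKRD1 in the deposited table reaches to 90921276, so the copy at -128 lies inside it. The windows of AMOTL1 and WWTR1, and the first starts of AMOTL2 and AJUBA, held none. The AMOTL1 window (from 94768106) lies inside its gene model in the deposited table, which begins at 94706431. Both WWTR1 windows (from 149703224 and 149657976) lie inside a minus-strand model that reaches 149736714. The outermost starts of these 2 models were therefore not searched. AP-1 dimers often share sites with TEAD. Their motif was searched in the loose form TGANTCA, with any base allowed in the middle. It was found once, as TGATTCA in the window of ANKRD1, against 7.71% of all windows for the loose form. No CArG box, the motif of SRF, a factor with actin-sensing MRTF cofactors, was found in the 11 windows, against 1.29% of all. A match describes letters in the window and not binding.

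**Figure D1:**
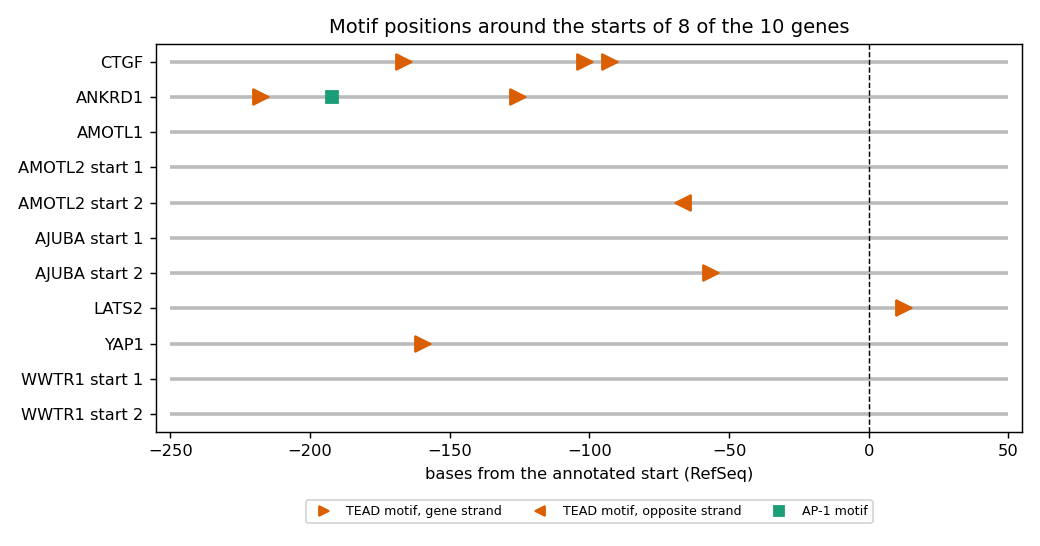
Each grey line is 1 RefSeq window, from 250 bases before to 50 bases after an annotated start (x axis, bases). Orange triangles mark the TEAD motif, pointing right on the strand of the gene and left on the opposite strand, and the green square marks the AP-1 motif; CTGF shows 3 triangles and ANKRD1 shows 2.

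Of the 10 genes, 7 rose with the ITGB5 hairpin, 0 fell and 3 did not pass the test (edgeR quasi-likelihood test, Benjamini-Hochberg adjusted p under 0.05 over all 16577 genes tested). Across all genes tested, 8.31% rose, 6.74% fell and 15.1% passed in either direction. At an unadjusted p under 0.05 the counts were 7 higher and 2 lower (WWTR1 and TEAD1), and after adjustment 0 fell with DESeq2 or limma as well. The median log2 change of the 10 genes was 0.20, against -3.64e-05 over all genes. The hairpin and control libraries did not overlap for any of the 10: 8 were higher and 2 lower in every hairpin library than in every control, against 14.7% and 13.8% of all genes (28.5% in either direction). The secreted and nuclear targets ANKRD1, CYR61 and CTGF moved most, the YAP/TAZ restraints AMOTL1 and LATS2, the LATS inhibitor AJUBA and the coactivator YAP1 rose by smaller amounts, and AMOTL2, WWTR1 and TEAD1 did not pass. In RNA from whole cultures, more expressing cells and more RNA per cell cannot be told apart.

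**Figure D2:**
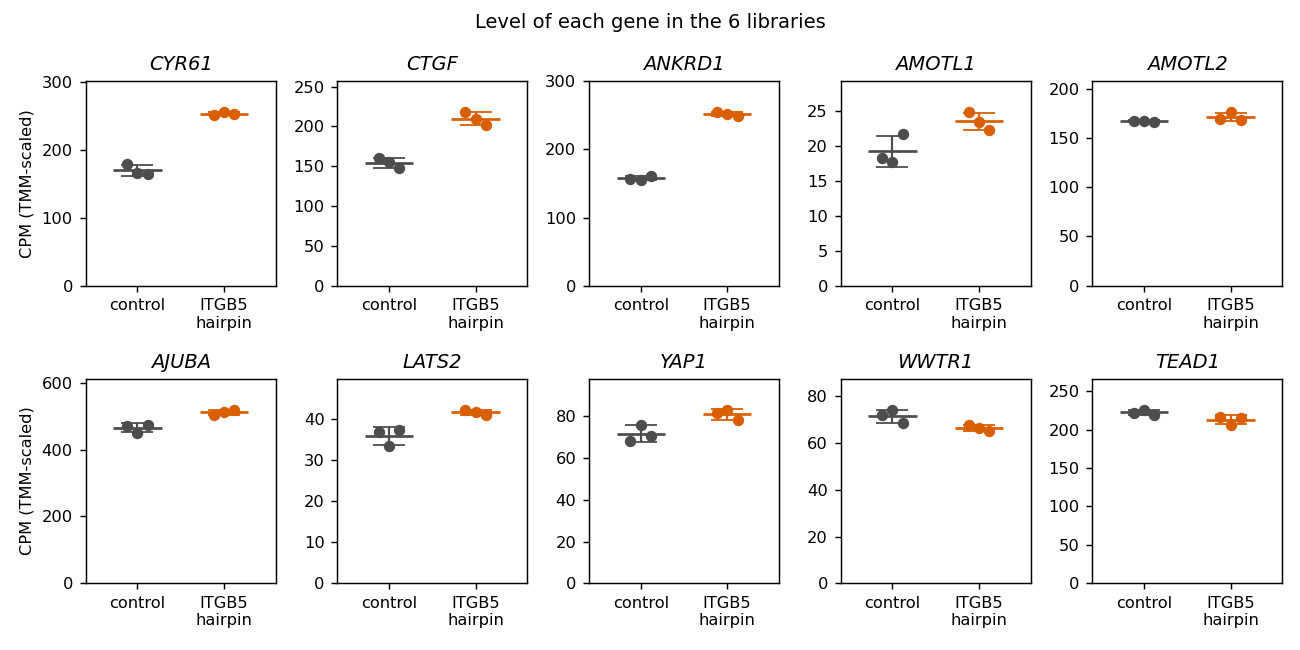
Each panel shows 1 gene, with the TMM-scaled CPM of each library (points) and the mean ± SD of the group (bars) for the control hairpin (grey) and the ITGB5 hairpin (orange); every y axis starts at 0. ANKRD1, CYR61 and CTGF are clearly separated, while AMOTL2 has means of 167 and 171 CPM.

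Of the 10 genes, the largest rise was that of ANKRD1 (ENSG00000148677, chromosome 10, 90912096 to 90921276, minus strand, in the GENCODE 29 models of GRCh38 that the table uses), which encodes a nuclear ankyrin-repeat protein of muscle and stressed cells and is a standard readout of YAP activity. Its level was 157, 156 and 161 CPM in the controls, rising to 255, 252 and 248 CPM under the ITGB5 hairpin. All 3 hairpin libraries lay far above the controls, and neither group spread by more than a few percent (158 CPM ± 2.84 and 252 CPM ± 3.07, SD, n = 3 each). The fold change was 1.59, or 0.67 ± 0.031 (SE) on the log2 scale (95% interval 0.61 to 0.73; edgeR adjusted p = 7.39e-26). It ranked 65 among the 1377 genes that rose.

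CYR61 (ENSG00000142871, chromosome 1, 85580761 to 85583962, plus strand) encodes a secreted matrix protein that itself binds integrins. It lay at 180.1, 167 and 165 CPM in the controls, against 252, 256 and 253 CPM in the hairpin libraries. The groups were well apart, with the first control the highest of its group. CYR61 rose 1.49-fold, or 0.57 ± 0.032 (SE) on the log2 scale (interval 0.51 to 0.64; edgeR adjusted p = 4.77e-22).

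CTGF (ENSG00000118523, chromosome 6, 131948176 to 131951373, minus strand), the other CCN family protein of this set, is a secreted matrix factor linked to fibrosis. Control libraries held 160.2, 156 and 148 CPM and hairpin libraries 218, 209 and 202 CPM. The groups did not overlap, and the spread within each was wider than for ANKRD1. The rise was 1.36-fold, or 0.44 ± 0.034 (SE) on the log2 scale (interval 0.37 to 0.51; edgeR adjusted p = 5.23e-16). Both genes are short and nearly equal in length, and their length-scaled levels (FPKM) in the controls lay in overlapping ranges, from 67.1 to 73.4 for CYR61 and from 63.1 to 68.5 for CTGF. With the hairpin they no longer overlapped, at 102.7 to 104.3 and 86.2 to 93.2 FPKM. The ratio of CYR61 to CTGF was 1.07, 1.02 and 1.06 in the controls and 1.10, 1.17 and 1.19 with the hairpin. An exact two-sided permutation test gave p = 0.1 (also 0.1 after adjustment over 3 paralog ratios tested), the smallest value that 3 libraries against 3 allow. Of the other CCN genes, NOV was scarce (1.71 CPM ± 0.282 against 1.57 CPM ± 0.361 with the hairpin, SD, n = 3 each; edgeR adjusted p = 0.870) and WISP1, WISP2 and WISP3 were too low to test.

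Since CYR61, CTGF and ANKRD1 are also abundant in stromal cells, markers of fibroblasts and stellate cells were read beside them. Of 9 such markers, 7 could be tested, and 1 rose, 0 fell and 6 did not pass, with a median log2 change of 0.15. Among all genes tested, 8.31% rose and 6.74% fell. At an unadjusted p under 0.05 in edgeR, 2 markers were higher and 0 lower. Without overlap between the groups, 3 were higher and 1 lower, against 14.7% and 13.8% of all genes tested. The marker that rose was LUM, which went from 146 CPM ± 2.5 to 170.0 CPM ± 2.14 (SD, n = 3 each; log2 change 0.22, edgeR adjusted p = 6.39e-07). Summed over the 9, the level ranged from 312 to 325 CPM in the controls and from 347 to 359 CPM with the hairpin, so LUM was only part of it. THY1 was at 0 in every control library and DCN averaged 0.0975 CPM, both below what could be tested. The part of these markers in the rise of the 3 targets was not tested.

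The kinase gene LATS2 and the LATS inhibitor gene AJUBA rose by less. LATS2 (ENSG00000150457, chromosome 13, 20973032 to 21061547, minus strand) encodes a kinase that phosphorylates YAP and TAZ and is itself a YAP target. It was at 36.9, 33.3 and 37.4 CPM in the controls, against 42.2, 41.8 and 41.0 CPM under the ITGB5 hairpin. Every hairpin library exceeded every control, and the second control was the lowest. LATS2 rose 1.16-fold (log2 change 0.22, SE 0.063, interval 0.09 to 0.34; edgeR adjusted p = 0.0121). It missed the threshold without shcontrol replicate 2 (edgeR adjusted p = 0.130) and with limma (adjusted p = 0.0677).

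AJUBA (ENSG00000129474, chromosome 14, 22971174 to 22982642, minus strand), whose LIM-domain protein inhibits LATS at junctions under tension, was the most abundant of the 10 by counts. Its controls lay at 471, 449 and 474 CPM and its hairpin libraries at 504, 512 and 518 CPM. The gap between the groups was small but wider than the range of either group. The rise was 1.10-fold (log2 change 0.14, SE 0.025, interval 0.09 to 0.19; edgeR adjusted p = 2.67e-05).

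The angiomotin family, whose proteins bind YAP and TAZ through their PPxY motifs, was uneven. AMOTL1 (ENSG00000166025, chromosome 11, 94706431 to 94876753, plus strand) was scarce, at 18.2, 17.7 and 21.7 CPM in the controls, against 24.8, 23.4 and 22.3 CPM in the hairpin libraries. The highest control and the lowest hairpin library nearly met. AMOTL1 rose 1.22-fold (log2 change 0.29, SE 0.086, interval 0.12 to 0.46; edgeR adjusted p = 0.0126). Leaving out shcontrol replicate 1 (edgeR adjusted p = 0.0779), shcontrol replicate 2 (0.0945) or shITGB5 replicate 1 (0.0843) ended this call, and so did limma (adjusted p = 0.173).

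AMOTL2 (ENSG00000114019, chromosome 3, 134355874 to 134375479, minus strand), a standard member of YAP target signatures, stayed within a narrow range. The controls held 167, 168 and 166 CPM and the hairpin libraries 169, 176 and 168 CPM, so that the groups were apart only by a margin smaller than the hairpin spread. The log2 change was 0.03 with an interval of -0.03 to 0.10 (edgeR adjusted p = 0.577), which leaves out changes as large as those of CYR61, CTGF or ANKRD1. AMOT, the founding gene of the family, lay at 9.0, 13.4 and 11 CPM in the controls, against 15.6, 14.6 and 13.9 CPM in the hairpin libraries. It rose by 0.41 on the log2 scale (SE 0.113, edgeR adjusted p = 0.00779), a call lost without shcontrol replicate 1 (edgeR adjusted p = 0.146) and with limma (adjusted p = 0.159). Per length, AMOTL2 made up 88.9% to 90.7% of the summed FPKM of the 3 angiomotin genes in the controls and 86.8% to 87.9% with the hairpin. The FPKM ratio of AMOTL1 to AMOTL2 was 0.0647, 0.0630 and 0.0780 in the controls and 0.0874, 0.0791 and 0.0790 with the hairpin, again without overlap (exact permutation p = 0.1, the smallest possible).

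Of the 2 coactivators, YAP1 passed the test and WWTR1 did not. YAP1 (ENSG00000137693, chromosome 11, 102110461 to 102233423, plus strand) lay at 68.2, 76.1 and 70.6 CPM in the controls, against 81.5, 83.1 and 78.2 CPM in the hairpin libraries. The second control came close to the lowest hairpin library. YAP1 rose 1.13-fold (log2 change 0.18, SE 0.047, interval 0.08 to 0.27; edgeR adjusted p = 0.00504), and the call was lost without shcontrol replicate 1 (edgeR adjusted p = 0.0739) and with limma (adjusted p = 0.0793).

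WWTR1 (ENSG00000018408, chromosome 3, 149517235 to 149736714, minus strand) lay at 71.6, 74.0 and 68.2 CPM in the controls, against 67.5, 66.4 and 65.1 CPM in the hairpin libraries. Its groups were apart by less than 1 SD of the controls, in the direction opposite to YAP1, and the change of -0.10 (SE 0.048, interval -0.20 to -0.0083 before adjustment) did not pass (edgeR adjusted p = 0.149). The FPKM ratio of YAP1 to WWTR1 was 1.27, 1.38 and 1.38 in the controls and 1.61, 1.67 and 1.6 with the hairpin. This ratio was higher in 3 of 3 hairpin libraries (means 1.34 ± 0.0610 and 1.63 ± 0.0362, SD, n = 3 each; exact two-sided permutation p = 0.1, and 0.1 adjusted over the 3 ratios, the smallest possible). Of the summed FPKM of both genes, YAP1 made up 56.0% to 58.0% in the controls and 61.6% to 62.6% with the hairpin.

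TEAD1 (ENSG00000187079, chromosome 11, 12674591 to 12944483, plus strand), one of the DNA-binding partners, lay at 222, 226 and 219 CPM in the controls, against 217, 206 and 215 CPM in the hairpin libraries. The hairpin libraries were all lower, yet the change of -0.06 (SE 0.031, interval -0.13 to -0.0029 before adjustment) did not pass (edgeR adjusted p = 0.170). TEAD2, TEAD3 and TEAD4 had changes of -0.03, 0.03 and 0.23 on the log2 scale, with overlapping groups and edgeR adjusted p of 0.774, 0.830 and 0.0543. TEAD4 passed in 4 of the 14 alternative analyses, with edgeR adjusted p of 0.0499 at a mean FPKM of at least 1, 0.0490 with the replicate block, 0.0157 without shcontrol replicate 3 and 0.0383 without shITGB5 replicate 2. Per length, TEAD1 and TEAD2 were the most abundant of the 4 factors, each at 30.2% to 33.4% of their summed FPKM in every library, followed by TEAD3 (21.5% to 23.0%) and TEAD4 (12% to 16.5%).

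**Figure D3:**
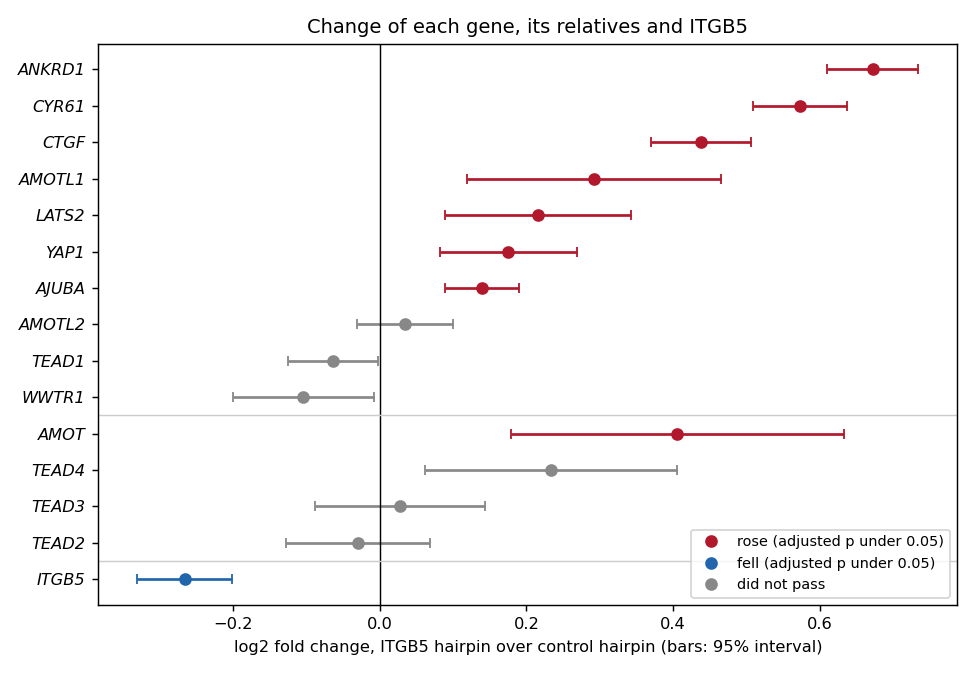
Points give the log2 fold change of each gene, ITGB5 hairpin over control hairpin, with 95% intervals as bars; the upper block holds the 10 genes, the middle block close relatives, and the lowest line ITGB5. Red points rose, the blue point fell, and grey points did not pass after adjustment, including WWTR1 and TEAD1, whose unadjusted intervals lie just below 0.

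Ordered by FPKM in the controls, the 10 genes ran from ANKRD1 (79.8) through AJUBA (77.7), CYR61 (69.4), CTGF (66.1), AMOTL2 (27.9), TEAD1 (21.6), YAP1 (11.4), WWTR1 (8.47) and LATS2 (6.43) to AMOTL1 (1.91). The libraries of ANKRD1 and AJUBA overlapped in the controls, as did those of CYR61 and CTGF, whereas all other neighbours were apart. With the ITGB5 hairpin, CYR61 lay above AJUBA and CTGF overlapped it (means of 103.3, 85.6 and 89.6 FPKM for CYR61, AJUBA and CTGF), and WWTR1 and LATS2 came close together (7.74 to 8.02 and 7.35 to 7.57 FPKM).

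The most abundant cofactor gene was VGLL3 (ENSG00000206538, chromosome 3), whose vestigial-like protein also binds TEADs. It lay at 2608, 2736 and 2664 CPM in the controls, against 3337, 3224 and 3348 CPM in the hairpin libraries. All hairpin libraries were higher, with a rise of 0.31 on the log2 scale (SE 0.019; edgeR adjusted p = 3.63e-20). At 210.0 and 259.8 FPKM, VGLL3 exceeded YAP1 per length in both groups. VGLL4, which competes with YAP for TEADs, had a change of 0.14 (edgeR adjusted p = 0.136), and VGLL1 and VGLL2 were at 0 in every library. Of the 8 genes tested among TEADs, coactivators and vestigial-like cofactors, 2 rose (VGLL3 and YAP1) and 0 fell (2 were lower at an unadjusted p under 0.05 in edgeR, and 0 fell with DESeq2 or limma). Over all genes tested, 8.31% rose and 6.74% fell.

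**Figure D4:**
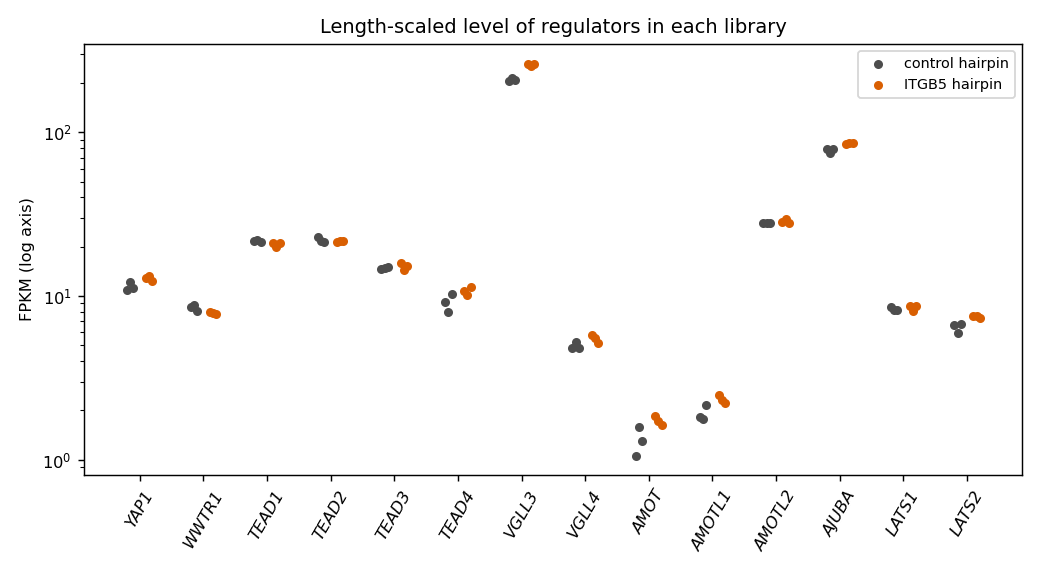
FPKM on a log axis for 14 regulators, with 1 point per library, control hairpin in grey and ITGB5 hairpin in orange. VGLL3 lies highest, and on this axis the points of both groups lie close together for most regulators. Of those shown, YAP1, VGLL3, AMOT, AMOTL1, AJUBA and LATS2 still rose in edgeR at an adjusted p under 0.05.

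Of 24 Hippo kinase and scaffold genes tested, 2 rose, 2 fell and 20 did not pass, with a median log2 change of -0.01. That share is near the 15.1% of all genes that passed. LATS2 and MAP4K4, a kinase that can activate LATS, rose (MAP4K4 0.08), and MOB1A, the LATS coactivator, and DCHS1, a large protocadherin, fell (-0.14 and -0.31). The MAP4K4 call ended when shcontrol replicate 1 (edgeR adjusted p = 0.0871), shcontrol replicate 2 (0.0725) or shITGB5 replicate 3 (0.0853) was left out. That of DCHS1 ended without shcontrol replicate 2 (edgeR adjusted p = 0.133), shcontrol replicate 3 (0.0524) or shITGB5 replicate 3 (0.136). LATS1 did not pass, at 71.8 CPM ± 1.65 and 73.6 CPM ± 2.82 (SD, n = 3 each; log2 change 0.04, edgeR adjusted p = 0.697).

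Among 19 binding partners of YAP/TAZ and inhibitors of LATS, 5 rose, 4 fell and 10 did not pass (median -0.01). This list holds AMOTL1, AMOTL2 and AJUBA, which are among the 10 genes. Without them 16 were tested, and 3 rose, 4 fell and 9 did not pass (median -0.02). Over all genes tested, 8.31% rose and 6.74% fell. For the 19, the rises numbered 3 without shcontrol replicate 1. The falls numbered 2 without shcontrol replicate 2 or shITGB5 replicate 3, and 6 without shITGB5 replicate 1. AMOT and AMOTL1 led the rises, and LIN7C, a junctional scaffold gene, fell to 42.9 CPM ± 2.01 from a control level of 54.2 CPM ± 4.68 (SD, n = 3 each; log2 change -0.34, edgeR adjusted p = 1.45e-05). YWHAH, a 14-3-3 protein gene of the kind that retains phosphorylated YAP in the cytoplasm, rose from 181 CPM ± 3.86 to 205 CPM ± 2.62 (0.18, edgeR adjusted p = 8.54e-06).

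Other YAP/TAZ targets were mixed, beside 8.31% of all genes tested that rose and 6.74% that fell. The 22-gene target signature holds 5 of the 10 genes, and of the 16 others tested, 4 rose, 2 fell and 10 did not pass, with a median log2 change of 0.09. CCDC80, a secreted matrix protein gene, rose most of these, from 179.8 CPM ± 6.44 to 253 CPM ± 3.88 (SD, n = 3 each; 0.49, edgeR adjusted p = 1.07e-19). IGFBP3 (0.42), NT5E (0.21) and GADD45A (0.17) also rose, and TGFB2 (-0.24) and DOCK5 (-0.16) fell; these 5 were named after their values were seen. TGFB2 was lost without shcontrol replicate 3 (edgeR adjusted p = 0.0552) or shITGB5 replicate 3 (0.0728) and DOCK5 without shcontrol replicate 2 (0.061, edgeR adjusted p). The receptor gene AXL, often used as a YAP target, averaged 0.238 CPM in the controls and could not be tested.

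A second list of 34 YAP/TAZ-responsive genes split further: of 33 tested, 12 rose, 8 fell and 13 did not pass, with a median of 0.10. This list holds AMOTL1 and AJUBA, which are among the 10 genes. Without them 31 were tested, and 10 rose, 8 fell and 13 did not pass (median 0.09). Over all genes tested, 8.31% rose and 6.74% fell. The EGFR ligand gene AREG rose from 24.1 CPM ± 1.07 to 36.8 CPM ± 2.45 (SD, n = 3 each; 0.61, edgeR adjusted p = 1.26e-09). THBS1, which encodes a secreted matrix glycoprotein, rose from 142 CPM ± 1.71 to 207 CPM ± 9.36 (0.54, edgeR adjusted p = 1.04e-19), and DDAH1 rose by 0.37. BIRC3, an inhibitor-of-apoptosis gene that lies close to YAP1 on chromosome 11, fell from 73.5 CPM ± 1.29 to 48.4 CPM ± 2.23 (-0.60, edgeR adjusted p = 1.3e-14).

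**Figure D5:**
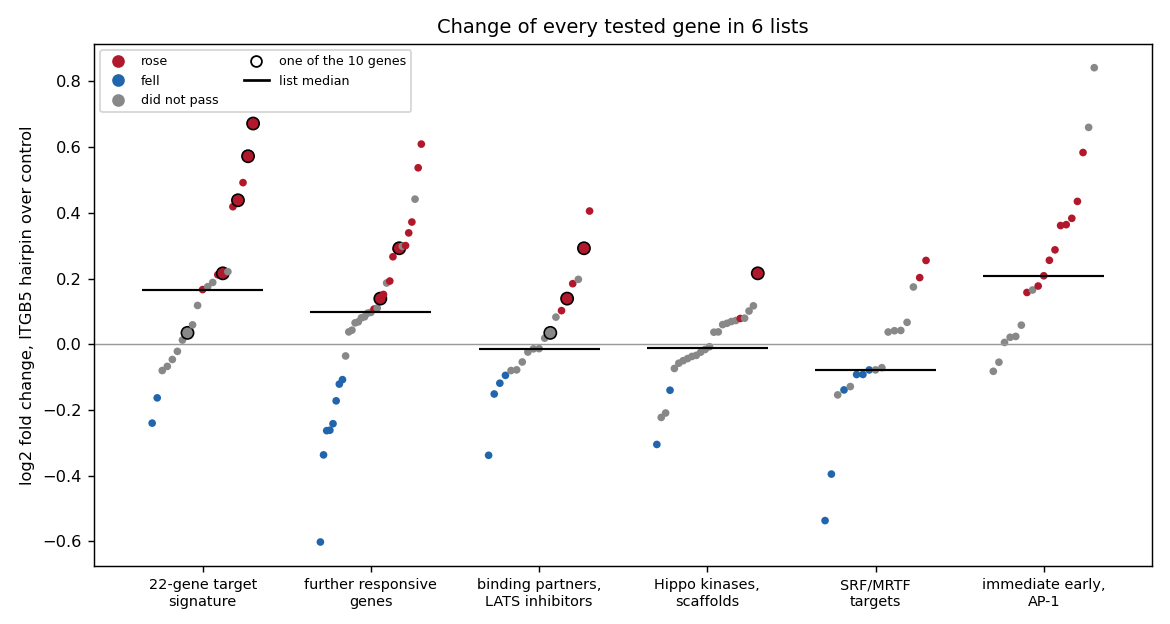
Each point is 1 tested gene, placed by its log2 fold change (y axis, ITGB5 hairpin over control), in 6 lists; horizontal lines are list medians and black rings mark the 10 genes. The target signature has a median of 0.17, and Hippo kinases and binding partners have medians of -0.01.

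Overlap with neighbouring genes was small. Exons of CTGF, AMOTL1, AMOTL2, AJUBA, YAP1 and WWTR1 overlap another annotated gene, but those genes held 0 to 17 counts over all 6 libraries, at most 0.242% of the count of the member. The spread between libraries was small beside the changes of the 3 leading targets. At 2332 to 4573 counts per library, CTGF, CYR61 and ANKRD1 had within-group coefficients of variation of 0.822% to 4.91%. Counting error alone would give 1.51% to 1.97%. AMOTL1, at 297 to 445 counts per library, varied by 11.4% in the controls and 5.36% with the hairpin. In 3′ untranslated regions, 1 copy of the 7-base word GACCAAA was present in CTGF and in TEAD1 and in none of the other 8 genes, while 15.8% of 13226 genes held it or AGACCAA. No member held TCGGAGA or CGGAGAA (3.35% of genes). These words were chosen with earlier results of the same data known, and their part in the changes was not tested.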

How the data were processed

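The authors deposited 1 table of whole-number counts per gene; although it is named for FPKM, 100% of its values are whole and the column totals differ. For aligner, counter and strand setting, the sources used here give nothing. A directional kit was used on total RNA, per the labels' protocols. Gene models in the deposited table are those of GENCODE 29 (GRCh38). Columns coded S and NC were read as the ITGB5 and the control hairpin, with the replicate number of the titles, a reading the labels do not spell out. Gene lengths came from the deposited table, and FPKM were computed here.

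Counts were tested with edgeR 4.0.16 in R 4.3.3: filterByExpr, TMM scaling, quasi-likelihood test on group alone, 2-sided, Benjamini-Hochberg adjustment over 16577 genes, threshold 0.05. Alternatives used RLE factors, library totals, other filters, DESeq2 1.42.0, limma 3.58.1 on log2(FPKM + 1), a minimum fold of 1.2, a replicate block and each library left out. The edgeR step was tested on simulated data. Replicates of a group differed beyond sampling noise (chi-square per degree of freedom 2.02 to 2.32). No mapped column was left out (0 unmapped). Promoter windows came from RefSeq (GRCh38.p14), and CYR61 and TEAD1 had no window.

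The 10 genes and all lists were chosen with earlier results of these data known. Named genes were ITGB5, the 10, TEAD2 to TEAD4 and AMOT, and from each list the 4 largest changes past the threshold, else the 2 most abundant genes. LATS1, VGLL1, VGLL2, VGLL4, AXL, NOV, DCN, THY1, KDR, CLEC4G, MS4A1 and the WISP genes were added after their values were seen. The lists were Hippo kinases and scaffolds, binding partners and LATS inhibitors, TEAD factors and cofactors, a 22-gene target signature, further responsive genes, CCN genes, SRF/MRTF targets, immediate early and AP-1 genes, mitochondrial transcripts, and markers of liver, fibroblast and stellate, endothelial, and blood and immune cells. Paralog ratios were added after the data were seen.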

Additional observations from a re-analysis of the deposited data

How the results depend on the processing

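Under the 14 alternatives, all 140 values of the 10 genes kept their direction, 128 also kept their side of the threshold, and 12 were no longer past it (AMOTL1, LATS2, YAP1 and AJUBA). ANKRD1, CYR61 and CTGF passed in every one. The 7 rises became 4 with limma on log2(FPKM + 1), and the 2495 genes became 1319. There the log2 change went from 0.2922 to 0.1985 for AMOTL1, from 0.2159 to 0.1897 for LATS2 and from 0.1753 to 0.1629 for YAP1. The cause of these lost calls was not tested. The test against a fold of 1.2 left 3 rises and 149 genes, by construction. In that test, ITGB5 at -0.2659 did not pass (adjusted p = 1). Leaving out 1 library gave 5 to 7 rises among the 10, 1939 to 2183 genes over all, and -0.2919 to -0.2504 for ITGB5. Limma left 0 rises and 1 fall of 2 and 2 among Hippo kinases, 3 of 5 rises among binding partners, 1 of 2 among TEAD factors and cofactors, 0 of 2 falls in the target signature, and 1 of 2 rises among SRF/MRTF targets; the cause was not tested. A fold of 1.2 left 5 of 8 rises and 0 of 2 falls in the signature, 2 of 12 rises and 1 of 8 falls among further responsive genes, 2 of 10 immediate early rises, 1 of 6 liver marker rises, and 0 rises and 1 of 6 falls among SRF/MRTF targets. It left 0 calls among Hippo kinases, binding partners, TEAD factors and cofactors, fibroblast markers and mitochondrial transcripts. Libraries with the same number showed no shared deviation (correlations of 0.0034, -0.0544 and -0.0155), and the replicate block called 2303 genes and 7 of the 10. TEAD3, which passed nowhere, ranged from -0.0064 to 0.0572 with 1 library left out, and PECAM1 from -0.1261 to 0.1956. The control spread of the scarce genes AMOTL1, AMOT and TEAD4 (coefficients of variation of 11.4%, 19.6% and 12.7%) exceeded that of counting error alone (5.60%, 7.35% and 5.38%).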

Other observations

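Immediate early and AP-1 genes, of which the AP-1 genes encode factors that often share sites with TEADs, rose in part. Of 19 tested, 10 rose, 0 fell and 9 did not pass (edgeR, with 0 also lower at an unadjusted p under 0.05 and 0 with DESeq2 or limma), with a median log2 change of 0.21. Over all genes tested, 8.31% rose and 6.74% fell. ATF3 rose from 49.3 CPM ± 0.994 to 66.7 CPM ± 1.77 (SD, n = 3 each; log2 change 0.43, edgeR adjusted p = 1.07e-09) and JUND from 174 CPM ± 7.90 to 227 CPM ± 10.6 (0.38, edgeR adjusted p = 6.61e-14). IER3 rose by 0.36 and EGR1 by 0.58, the latter at only 4.43 CPM ± 0.462 in the controls and lost without shcontrol replicate 1 (edgeR adjusted p = 0.0577) or shITGB5 replicate 1 (0.0806).

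Targets of SRF and its actin-sensing MRTF cofactors, a pathway that shares several targets with YAP/TAZ, fell more often than they rose. Of 17 tested, 2 rose, 6 fell and 9 did not pass, with a median of -0.08. Over all genes tested, 8.31% rose and 6.74% fell. MYL9, a myosin light chain gene, went from 11.6 CPM ± 0.797 to 8.02 CPM ± 1.29 (SD, n = 3 each; -0.54, edgeR adjusted p = 0.00116) and the calponin gene CNN2 from 218 CPM ± 6.07 to 166 CPM ± 6.38 (-0.40, edgeR adjusted p = 6.72e-15). The actin gene ACTB rose by 0.26 and the tropomyosin gene TPM1 by 0.20. Among markers of other cells, PECAM1 lay at 4.65 CPM ± 1.05 and 4.77 CPM ± 0.717, CD14 at 30.7 CPM ± 0.717 and 34.6 CPM ± 1.11, and LYZ at 6.85 CPM ± 0.610 and 6.24 CPM ± 0.212 in the controls and with the hairpin (SD, n = 3 each), and none passed in edgeR. The CD14 libraries did not overlap (30.1 to 31.5 CPM against 33.8 to 35.9 CPM), and CD14 passed with limma on log2(FPKM + 1) (adjusted p = 0.0273).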
